A study of Homo sapiens with 6 samples.

Results

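The genes described here are 10 components of the actin contractile cytoskeleton that are commonly read as marks of contractile or myofibroblast-like cells, namely ACTA2, TAGLN, MYL9, TPM1, TPM2, CNN1, CNN2, ACTN1, CALD1 and ACTB. They were taken by gene name from the deposited expression table, in which each name had 1 row, so that they are 10 of 58825 genes. All 10 reached a mean of 0.1 FPKM (fragments per kilobase of exon, scaled to library size) and were among the 19510 genes tested.

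HK-2 is an established human kidney tubular epithelial line, derived from proximal tubule and immortalized with papillomavirus genes. OX-LDL is low-density lipoprotein that has been oxidized. Poly(A) RNA was sequenced in 3 Control libraries, from cells the labels call untreated, and in 3 libraries from cells exposed to OX-LDL at 25 μg/ml for 48 h. Beyond the genes used to immortalize the line, the labels name no transgene, knockdown or antibody for either group. According to the study's methods, HK-2 cells were held in low-serum medium before OX-LDL was added, and whether the Control cells for sequencing were treated likewise is not stated there. The libraries are those of 1 cell line, and nothing in the labels says whether the 3 of a group came from separate cultures, so that every p-value below measures the spread between these libraries, which may be technical.

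The libraries held 62561347 to 76797607 deposited counts. About 4 counts were deposited per read pair. TMM factors lay between 0.985 and 1.02, and no library stood apart in depth. Of the 13 tubular epithelial markers, the highest by the mean over all 6 libraries were EPCAM (51.2 FPKM in Control and 53.1 in OX-LDL), KRT8 (37.5 and 65.4) and KRT18 (39.4 and 58.3), whereas LRP2, the endocytic receptor megalin of the mature proximal tubule, had no count in any library and CDH1, which encodes E-cadherin, stood at 0.0968 and 0.106 FPKM. The epithelial label thus rests on keratins and EPCAM, and the defining proximal tubule marker was absent.

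Contractile force in non-muscle cells is made by myosin II pulling on filaments of β- and γ-actin that are wrapped by tropomyosin and held together by α-actinin. Smooth muscle cells and myofibroblasts add α-smooth muscle actin (ACTA2), transgelin (TAGLN), calponin 1 (CNN1) and smooth muscle forms of caldesmon (CALD1) and tropomyosin, and in kidney fibrosis ACTA2 is the usual mark of a myofibroblast. Many of these genes are targets of serum response factor (SRF), which binds a short DNA element called the CArG box together with its actin-sensing cofactors MRTFA and MRTFB.

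The 10 genes fell into a high and a low class in both groups. ACTB, the gene of β-actin, made up 71.6% of the FPKM summed over the 10 genes in Control, and it was followed by MYL9 (10.9%), TPM1 (6.21%) and ACTN1 (4.99%). CALD1, CNN2 and TAGLN lay between 11.8 and 13.9 FPKM in Control, and the libraries of neighbours in that order overlapped. TPM2, ACTA2 and CNN1 formed the low class, with Control means of 0.235, 0.220 and 0.153 FPKM that also overlapped between neighbours, so that no order among these 3 is set in Control. In OX-LDL the TPM2 libraries, from 0.286 FPKM upward, lay above those of ACTA2 and CNN1, which overlapped. Also in OX-LDL, the libraries of CNN2 lay above those of TAGLN and CALD1, while TAGLN and CALD1 overlapped. FPKM in this table is per merged exon length of the gene, which for TPM1, a gene with many alternative exons, was 3.48 times its longest annotated transcript. Per longest transcript, a scale chosen after the values were seen, TPM1 lay above MYL9, with 133 ± 12.3 in Control against 66.8 ± 1.44 (SD, n = 3), and the low class still held the same 3 genes. Because the length used was fixed for each gene, the table holds no information on which tropomyosin, caldesmon or actinin isoforms were made.

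**Figure D1:**
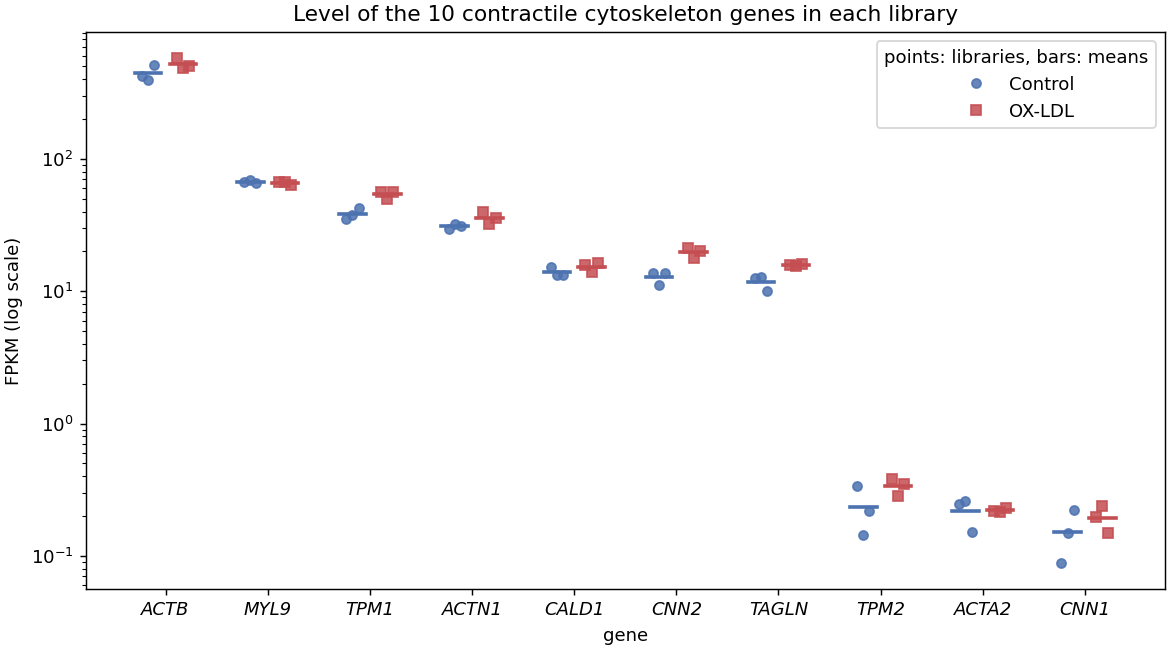
The plot gives the FPKM of each of the 10 genes on a log axis, with circles for the 3 Control libraries, squares for the 3 OX-LDL libraries and a bar for each group mean. TPM2, ACTA2 and CNN1 lie below 1 FPKM in every library, and the groups separate for TPM1, ACTN1, CNN2 and TAGLN.

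Of the 10 genes, 3 rose (TAGLN, TPM1 and CNN2) and 0 fell at an adjusted p-value under 0.05, where 15.3% of all genes tested were called, 7.91% of them higher and 7.42% lower. These calls and all adjusted p-values below come from edgeR's quasi-likelihood test with Benjamini-Hochberg adjustment over the 19510 genes. The 15.3% covers genes down to 0.1 FPKM and is not matched for level. With a minimum of 1 FPKM, which 12259 genes reached, 3152 of all genes were called. The same 3 members were called there, while ACTA2, TPM2 and CNN1 fell below that minimum. The median log2 fold change of the 10 genes was 0.33, beside -0.00 over all genes tested, of which the middle 50% lay between -0.33 and 0.33. All fitted log2 fold changes were above 0, but that of MYL9 was 0.00 and turned negative with total-count scaling and that of ACTA2 turned negative without Control 3. In FPKM, 4 of the 10 genes (TAGLN, TPM1, CNN2 and ACTN1) had groups that did not overlap, against 37.2% of all genes tested; all 4 were higher in OX-LDL, against 16.8%, and 0 were lower, against 20.5%. The share of these genes without overlap was thus close to that of all genes. At an unadjusted p-value under 0.05 there were the same 4 genes, against 30.4% of all genes. None of the 10 changed by more than 2-fold, a limit that 6.36% of the genes tested passed together with an unadjusted p-value under 0.05. In bulk RNA, a change in the share of cells that express a gene and a change in RNA per cell cannot be told apart.

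**Figure D2:**
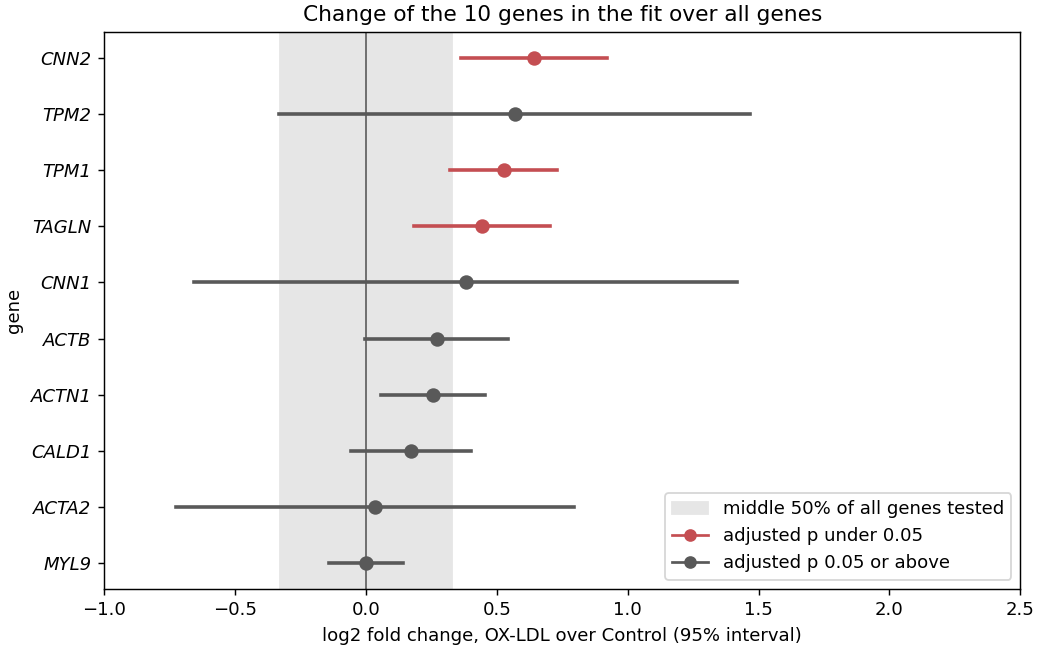
Points show the log2 fold change of OX-LDL over Control for each gene and lines its 95% confidence interval, with genes under an adjusted p of 0.05 in red and the middle 50% of all genes tested as a grey band. CNN2, TPM1 and TAGLN are the genes in red, and the intervals of TPM2, CNN1 and ACTA2 are the widest.

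Among the markers of smooth muscle and myofibroblasts, ACTA2 (ENSG00000107796; GRCh38, chr10:88935074-88991339, minus strand) was close to the lower limit of the data. It had 66, 70 and 38 counts in Control 1 to 3 and 49, 59 and 63 counts in OX-LDL 1 to 3. In FPKM these were 0.248, 0.258 and 0.153 against 0.219, 0.215 and 0.232. The OX-LDL values all lay within the range of the Control values, and Control 3 was the lowest library. The log2 fold change was 0.04 ± 0.32 (SE, adjusted p = 0.956, edgeR), and the 95% interval of the fold ran from 0.605 to 1.74. A change of ACTA2 smaller than these bounds was not detectable at this depth, since each library held only 9.5 to 17.5 read pairs of the gene. ACTA2 also lies across FAS and STAMBPL1 on the other strand, which had 2.44 and 1.75 FPKM. As the strand setting of the counting is not given in the sources used here, reads from these genes cannot be told apart from its own with certainty. On its own strand ACTA2 overlaps AL157394, which had 0.0508 FPKM and which no strand setting would separate.

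CNN1 (ENSG00000130176; chr19:11538767-11550322, plus strand), the calponin of differentiated smooth muscle, was as low, with 22, 39 and 51 counts in Control and 42, 62 and 38 in OX-LDL. The groups overlapped, and its change was 0.38 ± 0.44 on the log2 scale (SE, adjusted p = 0.617, edgeR). TPM2 (ENSG00000198467; chr9:35681992-35690121, minus strand), which encodes β-tropomyosin, had 100, 43 and 59 counts in Control and 96, 86 and 106 in OX-LDL. In FPKM, Control 1 (0.340) exceeded OX-LDL 2 (0.286), the groups overlapped, and the log2 fold change was 0.57 with a 95% interval from -0.33 to 1.47 (adjusted p = 0.371, edgeR). Leaving out a library moved this estimate from 0.31 (without Control 2) to 0.96 (without Control 1), and that of CNN1 from 0.11 (without Control 1) to 0.73 (without Control 3).

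TAGLN (ENSG00000149591; chr11:117199321-117204776, plus strand) encodes transgelin, an actin-binding protein of the calponin family that is abundant in smooth muscle. Its levels were 12.6, 12.9 and 9.98 FPKM in Control and 15.7, 15.5 and 16.02 FPKM in OX-LDL. Every OX-LDL library was above every Control library, and the OX-LDL libraries lay close together. The mean rose from 11.8 ± 1.61 to 15.7 ± 0.274 FPKM (SD, n = 3), a 1.36-fold change with a 95% interval from 1.14 to 1.63 (log2 scale 0.44 ± 0.11 SE, adjusted p = 0.0386, edgeR). This was the weakest of the 3 calls, being lost on leaving out Control 1, Control 2 or any of the OX-LDL libraries (adjusted p up to 0.117, edgeR).

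TPM1 and CNN2, the more abundant of the tropomyosin and calponin genes among the 10, both rose. TPM1 (ENSG00000140416; chr15:63042632-63071915, plus strand), which encodes α-tropomyosins that stabilize actin filaments, stood at 35.3, 37.6 and 42.2 FPKM in Control. In OX-LDL it stood at 56.3, 50.1 and 55.8 FPKM. The lowest OX-LDL library was above the highest Control library, the log2 fold change was 0.53 ± 0.09 (standard error), the fold 1.44 with an interval from 1.25 to 1.66, and the adjusted p was 0.0113 in edgeR's test. TPM1 was called under each of the 16 alternatives run. An antisense transcript on the opposite strand, TPM1-AS, had 0.137 FPKM in Control and 0.334 in OX-LDL, a level far below that of TPM1.

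CNN2 (ENSG00000064666; chr19:1026586-1039068, plus strand) encodes calponin 2, the calponin of non-muscle cells. It had 13.8, 11.1 and 13.7 FPKM in Control and 21.2, 17.9 and 20.0 FPKM in OX-LDL. The groups did not overlap, and the mean rose from 12.9 ± 1.54 to 19.7 ± 1.65 FPKM. This 1.56-fold change (log2 fold change 0.64 ± 0.12, 95% interval 0.36 to 0.92, adjusted p = 0.0158, edgeR) was the largest among the 3 genes called. It was lost on leaving out OX-LDL 1 (adjusted p = 0.0564, edgeR) or OX-LDL 3 (adjusted p = 0.0591, edgeR).

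The remaining genes, ACTN1, CALD1, MYL9 and ACTB, were not called. ACTN1 (ENSG00000072110; chr14:68874143-68979440, minus strand), the α-actinin that crosslinks stress fibres, had 29.4, 32.1 and 31.0 FPKM in Control and 39.7, 32.4 and 35.9 FPKM in OX-LDL. The groups did not overlap, but OX-LDL 2 was only slightly above Control 2. The log2 fold change was 0.26 ± 0.08 with an adjusted p of 0.0890 in edgeR's test, and ACTN1 passed the threshold only without OX-LDL 2 (adjusted p = 0.0349, edgeR). CALD1 (ENSG00000122786; chr7:134744252-134970729, plus strand), the gene of caldesmon, which blocks myosin from actin, had 15.1, 13.2 and 13.3 FPKM in Control and 15.7, 13.9 and 16.2 FPKM in OX-LDL. These groups overlapped (log2 fold change 0.17 ± 0.10, adjusted p = 0.285, edgeR).

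MYL9 (ENSG00000101335; chr20:36541497-36551447, plus strand) encodes a regulatory light chain of myosin II, whose phosphorylation switches on contraction in smooth muscle and non-muscle cells. It had 67.3, 68.6 and 65.7 FPKM in Control and 66.5, 67.1 and 63.7 FPKM in OX-LDL. The groups overlapped, and the interval of the fold, 0.907 to 1.10, was the narrowest of the 10 genes (log2 fold change 0.00 ± 0.06, adjusted p = 0.997, edgeR). ACTB (ENSG00000075624; chr7:5527148-5563784, minus strand) had 423, 395 and 508 FPKM in Control and 582, 484 and 500 FPKM in OX-LDL. Control 3 was above OX-LDL 2 and OX-LDL 3, and the log2 fold change of 0.27 ± 0.12 had an adjusted p of 0.169 in edgeR's test. Of 75-base windows of its longest coding transcript, 2.71% were also found in 4 other genes, most of them in the pseudogene ACTBP2, so that its counts are slightly uncertain, while the other 9 genes shared no such window.

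The 5 genes whose pattern over the 6 libraries was most like that of ACTA2, measured as the root mean square difference of centred log2 normalized counts among the 12259 genes that averaged 1 FPKM or more, were GABARAPL1 (0.0444), FBXL6 (0.0518), AP002478 (0.0607), WNT7B (0.0628) and KRBA2 (0.0785). None of the 5 was called (adjusted p from 0.818 to 0.980, edgeR). The ACTA2 pattern rests on 9.5 to 17.5 read pairs per library, so likeness to it is no sign of shared regulation.

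Promoter sequence was looked up for the 10 genes in RefSeq (GRCh38.p14), in windows from 250 bases before to 50 bases after each annotated start. There were 15 windows for 7 of the genes; ACTB, TAGLN and MYL9 were not in the table used. A complete CArG box on either strand was present in 1.29% of all 35116 promoter windows and in 2 of the 15 windows of these genes, 1 of ACTN1 and 1 of CNN2. With up to 1 mismatch, the box was in 18.9% of all windows and in 5 of the 15, in ACTA2, ACTN1, CALD1 and CNN2. The letters GGAATG occurred in 14.0% of all windows and in windows of ACTA2, ACTN1 and CALD1, TATAAA in 11.5% and in windows of ACTN1 and CALD1, and GGGCGG in 45.0% and in windows of all 7 genes. The TATAAA and CArG letters can overlap. A match describes these letters only.

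The following stretches, up to 200 bases before an annotated start and ending where exon sequence begins, are shown because they hold the CArG-like letters of a gene that rose (CNN2), of the classical myofibroblast marker, which did not pass the test (ACTA2), and of the gene closest to the threshold (ACTN1). They read 5′ to 3′ on the strand of the gene, and capitals mark the CArG box. That of CNN2 lies at chr19:1026408-1026580 on the plus strand, with a complete box that begins 89 bases before the start. That of ACTN1 lies at chr14:68977655-68977766 on the minus strand, before an internal start of the gene, with a complete box at 171 and a box with 1 mismatch at 139 bases. That of ACTA2 lies at chr10:88952774-88952973 on the minus strand, with boxes of 1 mismatch each at 121 and 71 bases.
CNN2: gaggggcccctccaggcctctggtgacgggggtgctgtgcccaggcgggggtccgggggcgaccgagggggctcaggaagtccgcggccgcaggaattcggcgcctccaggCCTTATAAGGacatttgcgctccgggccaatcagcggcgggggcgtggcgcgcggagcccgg
ACTN1: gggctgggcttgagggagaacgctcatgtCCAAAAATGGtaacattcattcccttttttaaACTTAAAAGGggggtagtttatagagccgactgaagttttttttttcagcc
ACTA2: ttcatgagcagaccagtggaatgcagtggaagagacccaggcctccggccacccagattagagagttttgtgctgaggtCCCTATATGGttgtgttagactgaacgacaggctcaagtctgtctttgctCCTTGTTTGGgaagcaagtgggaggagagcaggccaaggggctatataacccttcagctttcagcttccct

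A complete box was present before CNN2, which rose, and before an internal start of ACTN1. ACTN1 did not pass the test (adjusted p = 0.0890, edgeR), although its groups did not overlap in FPKM. TPM1, which was called under every alternative, had none in its window, even with 1 mismatch. Sequence outside the windows was not searched, and the part of the box in these changes was not tested.

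Whether the genes moved relative to ACTB was examined because β-actin is widely used as a reference gene. In 3 against 3 libraries the smallest two-sided p of the exact permutation test is 0.1. The log2 ratio of CNN2 to ACTB was higher by 0.38 in OX-LDL, and that of TPM1 by 0.25, in each case with no overlap between the groups (exact permutation p = 0.1). The other 7 genes overlapped, with differences from -0.27 for MYL9 (p = 0.2) to 0.37 for TPM2 (p = 0.4, exact permutation tests), and TAGLN was higher by 0.18 (exact permutation p = 0.7). Adjustment over the 9 ratios could not bring any of these under 0.05. The share of all genes without overlap relative to ACTB was not computed, so the count without overlap has no background beside it.

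The choice of reference set the direction for several genes. GAPDH, a glycolytic enzyme often used as a reference, itself rose from 1079 ± 29.6 to 1551 ± 27.5 FPKM (log2 fold change 0.56, adjusted p = 0.00234, edgeR). Relative to GAPDH, 0 of the 10 genes were higher without overlap and 4 were lower, namely MYL9 by -0.56, CALD1 by -0.38, ACTN1 by -0.30 and ACTB by -0.28 on the log2 scale (exact permutation p = 0.1 for each). The share of all genes without overlap relative to GAPDH was not computed. With GAPDH itself higher in OX-LDL, these counts are therefore not a result particular to the 10 genes. Of 13 commonly used reference genes, 5 rose and 0 fell, with PGK1, HPRT1 and GAPDH having the smallest p-values and log2 fold changes of 1.24, 0.81 and 0.56, and their median log2 fold change was 0.05. Over these 13 genes and ACTB, the difference in the log2 ratio of ACTA2 ranged from -1.16 to 0.46 and that of CNN2 from -0.60 to 1.02, being positive for 7 and 12 of the 14 references.

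**Figure D3:**
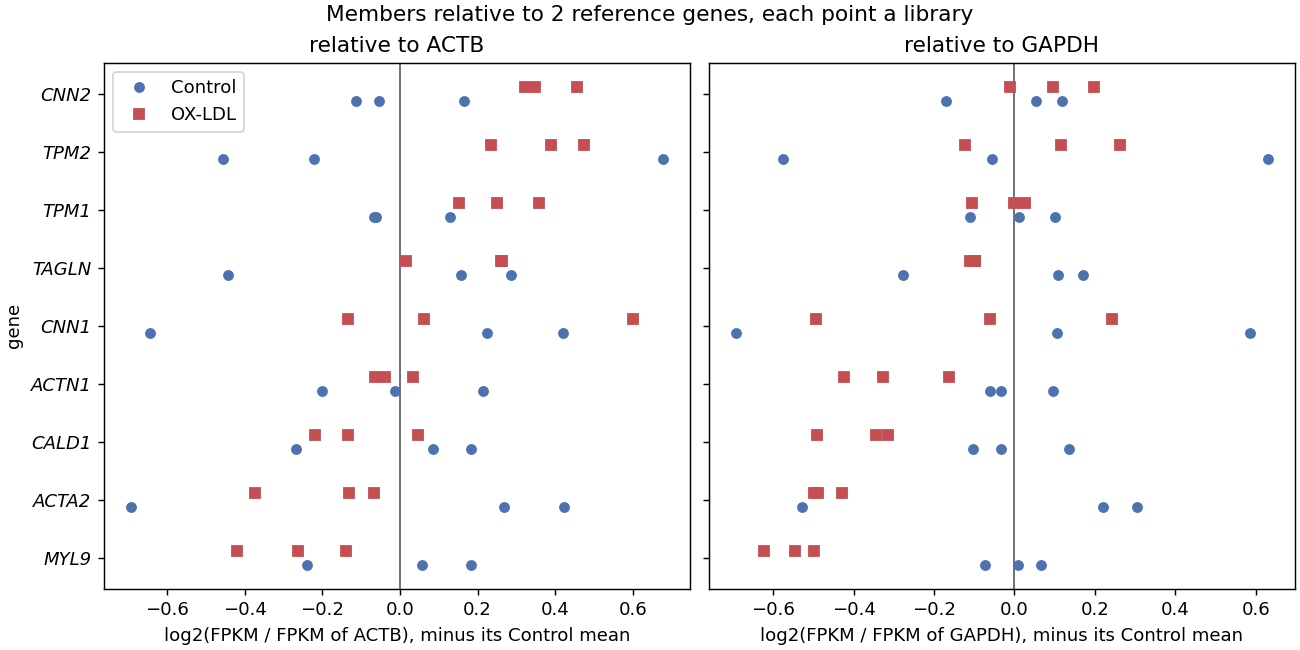
Each point is a library's log2 ratio of a gene's FPKM to that of ACTB (left) or GAPDH (right), minus the mean of the Control libraries. CNN2 and TPM1 separate upward relative to ACTB, whereas relative to GAPDH no gene separates upward and MYL9, CALD1 and ACTN1 separate downward.

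ACTA2 and CNN1, the smooth muscle members of their gene families, stayed a minor part of them. ACTA2 made up 0.0258% ± 0.00848 of the FPKM of ACTA2, ACTB and ACTG1 in Control and 0.0224% ± 0.00247 in OX-LDL (SD, n = 3; exact permutation p = 0.6). CNN1 was 1.18% ± 0.495 of CNN1 and CNN2 in Control and 0.989% ± 0.294 in OX-LDL (n = 3, exact permutation p = 0.7). TPM1 held 99.4% of the sum of TPM1 and TPM2 in both groups. All shares here and in the next paragraph are of FPKM per merged exon length, so their size depends on the length used for each gene. Against all 4 tropomyosin genes, the share of TPM1 was 34.3%, 32.4% and 32.6% in Control and 38.3%, 34.4% and 34.4% in OX-LDL, which did not overlap (exact permutation p = 0.1), although OX-LDL 2 exceeded Control 1 by less than 0.1 percentage points.

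Of the shares of CNN2, MYL9 and TAGLN in their families, those of CNN2 and MYL9 did not overlap between the groups. CNN2 made up 8.38% ± 1.44 of the 3 calponins in Control and 12.8% ± 0.727 in OX-LDL, without overlap (n = 3, exact permutation p = 0.1), and CNN3, the most abundant of them, had 142 FPKM in Control and 134 in OX-LDL. MYL9 was 24.2%, 27.9% and 26.4% of MYL9, MYL12A and MYL12B, the regulatory light chains, in Control, and 19.1%, 20.9% and 18.3% in OX-LDL. These values did not overlap (exact permutation p = 0.1), and MYL12B rose from 132 to 200 FPKM (log2 fold change 0.64, adjusted p = 0.00631, edgeR). TAGLN held 11.2% ± 1.12 of the 3 transgelins in Control and 9.60% ± 0.908 in OX-LDL, with overlap (n = 3, exact permutation p = 0.2). TAGLN2, the transgelin of non-muscle cells, rose from 76.5 to 140 FPKM (log2 fold change 0.90, adjusted p = 0.00288, edgeR), beside a log2 fold change of 0.44 for TAGLN; the difference between these was not tested. With 7 shares compared at a smallest p of 0.1, adjustment could not bring any under 0.05.

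The other genes of the actomyosin apparatus were taken as 6 lists of 78 genes chosen by role, of which 75 could be tested. Of these, 11 rose and 8 fell (25.3% called, against 15.3% of all genes), and their median log2 fold change was 0.13. The 15.3% covers genes down to 0.1 FPKM, so the 2 shares are not matched for level. With a minimum of 1 FPKM, which 12259 genes reached, 3152 of all genes and 24 of the related genes were called. Whether level accounts for the difference in share was not tested. None of the 5 other actins and tropomyosins tested was called, although all 5 estimates were positive with a median of 0.41. Among them, ACTG1, the gene of γ-actin, had 427 FPKM in Control and 478 in OX-LDL (adjusted p = 0.288, edgeR), TPM4 62.1 and 77.2 (adjusted p = 0.117) and TPM3 15.4 and 19.9 (adjusted p = 0.130). ACTG2, the γ-actin of enteric smooth muscle, had 11, 0 and 14 counts in Control and 52, 50 and 74 in OX-LDL, without overlap but with an adjusted p of 0.0989 in edgeR's test. Of the 3 calponin and transgelin relatives, TAGLN2 rose and TAGLN3, a neuronal transgelin, fell from 16.7 to 9.63 FPKM (adjusted p = 0.0338, edgeR).

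Of 20 genes of myosin II and its regulators, 4 rose and 4 fell. MYH9, the main non-muscle myosin heavy chain, rose from 149 to 216 FPKM (log2 fold change 0.57, adjusted p = 0.0111, edgeR) and MYL12B rose as given above. RND3, which opposes RhoA and its kinase ROCK1, fell from 40.5 to 24.3 FPKM (log2 fold change -0.70, adjusted p = 0.00256, edgeR), and PPP1CB, the catalytic subunit of myosin phosphatase, fell from 71.5 to 46.8 FPKM (log2 fold change -0.58, adjusted p = 0.0126, edgeR). The remaining called genes are named after their values were seen. MYLK, the kinase that phosphorylates regulatory light chains such as MYL9, rose from 8.08 to 13.5 FPKM (log2 fold change 0.77, adjusted p = 0.0128, edgeR). RHOC rose by 0.35 on the log2 scale (adjusted p = 0.0173, edgeR). RHOB fell from 23.9 to 13.2 FPKM (log2 fold change -0.82, adjusted p = 0.0279, edgeR), and PPP1R12B fell by 0.37 on the log2 scale (adjusted p = 0.0351, edgeR).

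Of 22 crosslinking and adhesion plaque genes, 2 rose and 2 fell. Vinculin (VCL) rose from 42.3 to 65.3 FPKM and paxillin (PXN) from 18.2 to 28.6 FPKM (log2 fold changes 0.66 and 0.68, adjusted p = 0.00749 and 0.00601, edgeR), both being proteins that link actin to integrin adhesions. The LIM-domain adhesion proteins FHL2 and TGFB1I1 (Hic-5) fell by 0.52 and 0.39 on the log2 scale (adjusted p = 0.0155 and 0.0215, edgeR). Of 18 genes of actin assembly and severing, 4 rose and 1 fell. The thymosins, which bind free actin monomers, moved apart, TMSB10 rising from 2204 to 2982 FPKM and TMSB4X falling from 1061 to 798 FPKM (adjusted p = 0.00605 and 0.0327, edgeR). The formin DIAPH3, which elongates actin filaments, rose from 6.63 to 11.3 FPKM (adjusted p = 0.0103, edgeR), and the severing factor DSTN rose by 0.31 on the log2 scale (adjusted p = 0.0248, edgeR). The fifth gene, the formin DIAPH1, is named after its values were seen, with a log2 fold change of 0.39 (adjusted p = 0.0341, edgeR).

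None of the 7 tested genes of the SRF list was called, and their median log2 fold change was -0.02. SRF itself had 10.8 ± 0.651 FPKM in Control and 10.4 ± 0.899 in OX-LDL (SD, n = 3; adjusted p = 0.935, edgeR). Among those with the smallest p-values were ELK3, with -1.05 (adjusted p = 0.117, edgeR), ELK1, with -0.21 (adjusted p = 0.0985), and the coactivator MRTFA, with -0.15 (adjusted p = 0.474) on the log2 scale. MYOCD, the muscle-restricted coactivator, had about 0.01 FPKM in both groups and was not tested.

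**Figure D4:**
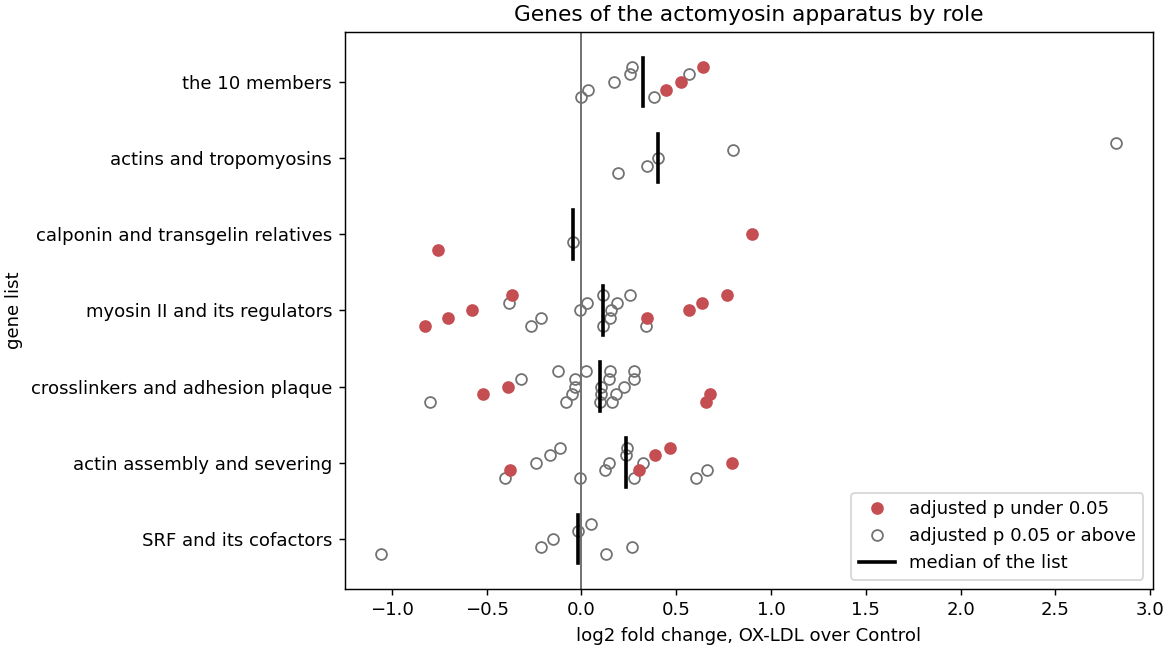
Each point is the log2 fold change of a gene, OX-LDL over Control, in the 10 contractile genes and in 6 lists of related genes, filled red where the adjusted p was under 0.05, and black bars are list medians. Red points lie on both sides of 0 in every related list that holds any, whereas the 3 red points of the 10 genes all lie above 0, and ACTG2 stands at the far right of the actins and tropomyosins from very few counts.

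Markers of the cell types that carry these genes in tissue were examined beside the calls. Of 11 smooth muscle markers, 5 could be tested and 2 rose, SMTN (smoothelin) from 1.20 to 3.78 FPKM and SYNM (synemin) from 7.37 to 10.3 FPKM (log2 fold changes 1.69 and 0.52, adjusted p = 0.00491 and 0.0428, edgeR). RGS5, a pericyte gene, was the highest of the list, with 70.2 FPKM in Control and 47.6 in OX-LDL (adjusted p = 0.202, edgeR). LMOD1 (0.146 and 0.201 FPKM, adjusted p = 0.319, edgeR) and NOTCH3 (0.424 and 0.270 FPKM, adjusted p = 0.212, edgeR) were not called. KCNMB1 and PGM5 had no count, and MYH11 and DES were under 0.1 FPKM. MYH11, which was not tested, had 8, 14 and 11 counts in Control and 28, 27 and 32 in OX-LDL. The other untested smooth muscle markers did not separate between the groups. LMOD1, NOTCH3 and the counts of MYH11 are given after their values were seen. The summed level of the list was 67.6 to 100.4 FPKM in Control and 54.5 to 77.8 in OX-LDL. Of 10 fibroblast markers, 3 could be tested and 0 were called; the list summed to 10.3 to 12.3 FPKM in Control and 9.26 to 14.3 in OX-LDL. LUM (10.2 and 11.4 FPKM), COL1A1 (0.573 and 0.813) and THY1 (0.289 and 0.228) were the highest of these, DCN had no count, and COL1A2 and PDGFRA had at most 12 counts in every library. Of the tubular epithelial markers, 8 were tested. KRT8 rose by 0.83 on the log2 scale (adjusted p = 0.0116, edgeR) and PAX8 fell from 46.6 to 19.4 FPKM (log2 fold change -1.23, adjusted p = 0.0182, edgeR), and the list summed to 196 to 219 FPKM in Control and 223 to 261 in OX-LDL. The part of these markers in the changes of TAGLN, TPM1 and CNN2 was not tested.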

How the data were processed

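Poly(A) RNA of 3 Control and 3 OX-LDL libraries was measured by paired-end sequencing. The submitters' processing notes name cutadapt 1.9, HISAT2 2.0.4, StringTie 1.3.4d, edgeR and DESeq2 with GRCh38. The authors deposited estimated counts, not scaled for library size, and FPKM values per merged exon length of each gene, with a count of 0 listed at 0.0001 FPKM. The counts are whole numbers, about 4 per read pair; a count of at most 12 is therefore at most 3 read pairs. The library kit marks strand, but the strand setting of the counting is not given in the sources used here.

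Genes whose mean over the libraries reached 0.1 FPKM were tested with edgeR 4.0.16 (R 4.3.3; TMM, glmQLFit, glmQLFTest, group as the only term, 6 libraries). Standard errors were obtained from the log2 fold change and the F statistic, as |log2 fold change|/√F. Ratios and shares were compared with the exact two-sided permutation test. The 10 genes and the related lists were chosen with earlier results of these data known. Named genes were the 10, up to 4 per related list with the smallest p-values, the 3 highest of each marker list and those its counts turn on, up to 3 reference genes and the 5 most like ACTA2, with exceptions stated. Of 13 epithelial markers, GGT1 was left out because it had 2 identifiers, and the result of 1 tested marker is not reported here. The ratio of counts to FPKM was meant to follow isoform use but proved to be a fixed gene length, within 5% over the libraries for 99.0% of 12218 genes. The fits were tested on simulated data. Alternatives were DESeq2 1.42.0, limma 3.58.1 on log2(FPKM + 0.1, 1 or 0.01), DESeq2 size factors, total counts, no minimum or 1 FPKM, counts divided by 4, a replicate block and leaving out each library.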

Additional observations from a re-analysis of the deposited data

How the results depend on the processing

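TPM1 kept its call under all 16 alternatives, CNN2 under 14 and TAGLN under 8. The count of genes called, 2991, was 4430 with DESeq2 and 1161 (without Control 2) to 2943 (without OX-LDL 2) on leaving out a library. Of the 10 genes, 1 to 3 were called on leaving out a library, 1 (TPM1) without OX-LDL 1 or OX-LDL 3, and 2 or 3 otherwise. Of the related genes, 19 were called, 28 with DESeq2, 24 at a minimum of 1 FPKM and 14 to 20 under the other alternatives to the test or scaling; on leaving out a library, 10 (without OX-LDL 1) to 20 were called, with 11 without Control 2 and 12 without OX-LDL 3. Relative to ACTB, 2 genes were without overlap, 4 relative to GAPDH, and 2 to 5 on leaving out a library, 5 without Control 3. The shares over all genes were not computed for these ratios. TAGLN also lost its call with limma at a pseudocount of 0.01 (adjusted p = 0.0507) and with no minimum level (adjusted p = 0.0586, edgeR).

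The log2 fold change of MYL9 was -0.0277 with total counts only, -0.0315, -0.0311 and -0.0316 with limma at pseudocounts of 0.1, 1 and 0.01, -0.0106 with no minimum level, and -0.0152 to 0.0209 on leaving out a library. That of ACTA2 was -0.16 to 0.16 on leaving out a library, the lowest without Control 3. At a minimum of 1 FPKM, ACTA2, TPM2 and CNN1 gave no value. The cause of these changes was not tested.

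Libraries with the same replicate number showed little shared deviation over the genes tested (correlations -0.0347, -0.000891 and 0.0350). Libraries with different numbers gave -0.0499 to 0.0498. The labels give no pairing, and this check over all genes, many of them at low counts, cannot exclude it. With the replicate block, 1636 of all genes, 2 of the 10 (TAGLN lost, adjusted p = 0.0808, edgeR) and 14 of the related genes were called.

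Depth limits ACTA2, CNN1 and TPM2, with 5.5 to 26.5 read pairs per library. The 6 libraries are of 1 cell line, without a batch label, and RNA does not give protein level, filament assembly or isoform use.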
